A study of Mus musculus with 3 samples.

Results

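The 4070 regions described here are wide stretches of chromatin monomethylated at lysine 4 of histone H3 (H3K4me1) in resting splenic natural killer cells (NKC) that carried no called peak of the transcription factor Runx3. They were chosen from the measured lists as the H3K4me1 regions from 3.18 kb to just under 10 kb wide that shared 0 bp with each of the 15524 Runx3 peaks. Of 49902 H3K4me1 regions, 8989 lay within these widths, and the other 4919 of them held Runx3, meaning that they shared at least 1 bp with a peak. All 4070 free regions entered every count below, and no region was dropped for a low value. Since the absence of Runx3 and the width chose the regions, both are given as a description and were not tested.

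Chromatin immunoprecipitation sequencing (ChIP-seq) was performed on NKC freshly isolated from spleens of ICR mice, an outbred stock, with no treatment and no genetic change stated. The series holds 3 samples, 1 from an anti-Runx3 antibody made by the laboratory, 1 from a monoclonal antibody to H3K4me1 and 1 from the control, non-immune rabbit serum (NIS). Isolation was by negative selection followed by sorting, for NKp46 per the labels and for DX5 per the study's methods. The deposited files are 2 lists of coordinates, for Runx3 and H3K4me1, with neither read depth nor signal nor NIS values, so each antibody gave 1 list and no spread between replicates could be computed.

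H3K4me1 is laid down by the Mll3 and Mll4 methyltransferases and marks enhancers, whether active or primed, as well as the flanks of active promoters. Runx3, a Runt-domain factor, binds DNA together with its partner Cbfb and acts as activator or repressor in cytotoxic lymphocytes, often beside factors of the ETS and T-box families. In NKC the genes of activating and inhibitory receptors, of granule proteins and of cytokine receptors define the cell's function, and their enhancers carry H3K4me1. An H3K4me1 region without Runx3 is thus marked chromatin at which no binding of this factor was called.

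Sequences from the free regions that are densest in copies of the RUNX consensus are shown first. The consensus was searched on both strands as TGTGGT and TGTGGC as well as TGCGGT and TGCGGC. The windows below are the 150 bp with the most matches in 3 of the 5 free regions with the highest density of matches, printed 5′ to 3′ on the plus strand of mm9 with the matches in capitals (ACCACA is TGTGGT on the other strand). They lie in introns of Prkce (a protein kinase C), Arhgef10l (a guanine nucleotide exchange factor) and Hip1 (a clathrin adaptor).
Prkce, chr17:86835473-86835622: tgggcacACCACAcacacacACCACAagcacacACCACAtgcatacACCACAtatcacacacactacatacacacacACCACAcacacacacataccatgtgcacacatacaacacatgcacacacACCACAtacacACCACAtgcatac
Arhgef10l, chr4:140127206-140127355: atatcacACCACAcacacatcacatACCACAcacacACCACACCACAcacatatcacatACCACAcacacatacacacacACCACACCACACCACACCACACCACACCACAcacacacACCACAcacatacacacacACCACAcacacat
Hip1, chr5:136002993-136003142: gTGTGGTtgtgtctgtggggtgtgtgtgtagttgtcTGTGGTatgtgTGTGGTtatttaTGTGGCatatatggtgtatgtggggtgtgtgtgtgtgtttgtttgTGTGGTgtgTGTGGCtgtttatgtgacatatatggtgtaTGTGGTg

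The windows in Prkce and Arhgef10l are simple repeats of CA in which ACCACA recurs. That in Hip1 is a TG-rich tandem repeat with a unit of 66 bp. Windows chosen by the same density rule inside Runx3 peaks, in regions that hold Runx3, are given for comparison. The first is of a region between genes, 62.7 kb from Trpm1, the second lies in an intron of the very long Gm20388 model, and the third lies beside Il4ra, the interleukin-4 receptor gene.
Intergenic, toward Trpm1, chr7:71231931-71232080: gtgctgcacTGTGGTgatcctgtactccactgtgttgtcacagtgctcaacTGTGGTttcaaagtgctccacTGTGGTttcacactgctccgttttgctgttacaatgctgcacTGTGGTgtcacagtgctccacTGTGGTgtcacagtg
Gm20388 intron, chr8:123398515-123398664: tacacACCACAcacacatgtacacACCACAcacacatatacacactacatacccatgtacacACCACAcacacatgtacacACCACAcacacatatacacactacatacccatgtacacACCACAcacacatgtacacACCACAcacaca
Beside Il4ra, chr7:132724809-132724958: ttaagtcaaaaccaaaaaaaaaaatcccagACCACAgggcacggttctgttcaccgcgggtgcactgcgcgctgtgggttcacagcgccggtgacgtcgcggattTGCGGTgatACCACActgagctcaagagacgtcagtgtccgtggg

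The number of matches in the windows ran from 7 to 13 in the free regions and was 5, 6 and 3 in those 3 windows inside peaks. The window near Il4ra has single RUNX words in mixed sequence, while the other 2 are tandem repeats with units of 63 and 57 bp. A dense run of RUNX words in a repeat was therefore present both with and without a called peak.

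The free regions covered 18.5 Mb, or 14.5% of all bases in H3K4me1 regions, against 25.7 Mb in the wide regions that held Runx3. Their median width was 4090 bp (interquartile range 3542 to 5119 bp), and that of the regions holding Runx3 was 4716 bp (3785 to 6275.5 bp). Of all wide regions 45.3% were free of Runx3 (95% confidence interval 44.3 to 46.3%), and of H3K4me1 regions of all widths 71.4% were free. The free share fell along the widths, from 55.04% (53.4 to 56.7%) of the 3461 regions under 4 kb to 21.0% (16.7 to 26.0%) of the 291 regions of 9 kb or more. Wilson intervals throughout cover counting error over regions only, and regions of 1 list are not biological replicates. Because of this slope the values of the regions holding Runx3 were weighted, in bins of 500 bp, to the width distribution of the free ones wherever the 2 sets are compared as equally wide.

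**Figure D1:**
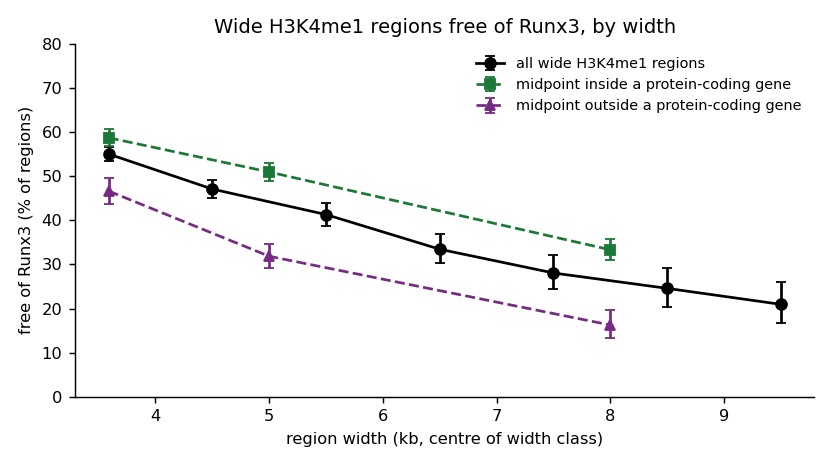
Share of wide H3K4me1 regions free of Runx3 (vertical axis, percent) against region width (horizontal axis, kb, centre of each width class) for all wide regions and for those with the midpoint inside or outside a protein-coding gene; bars are 95% Wilson intervals. The share for all regions runs from 55.04% in the narrowest class to 21.0% in the widest, and the regions inside genes lie above those outside in each of the 3 classes shown.

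At the limits of the rule, the narrowest free region (chr7:52368522-52371701) was 3.18 kb wide, lay 4769 bp from a peak and was 1 bp wider than the one just outside (chr4:153607479-153610657). The widest free region was 9990 bp (chrX:83117759-83127748) and the narrowest just above the limit was 10001 bp (chr19:59409171-59419171). One free region ended 1 bp from a peak (chr7:133338804-133343632, 4829 bp), and 1 region holding Runx3 shared only 2 bp with its peak (chr1:136312427-136318403, 5977 bp). Of the 4919 regions holding Runx3, 3911 held 1 peak, 897 held 2 and 111 held 3 or more, and 451 (9.17%) held no peak midpoint.

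The distance from the nearest Runx3 peak ranged from 1 bp to several Mb among the free regions. The median gap between the nearest edges was 12869.5 bp (interquartile range 4235 to 36546 bp, highest 6006967 bp). A peak lay within 1 kb of 450 regions (11.1%, 10.1 to 12.1%) and within 10 kb of 1776 (43.6%, 42.1 to 45.2%), while 387 (9.51%) were over 100 kb and 51 over 500 kb from any peak. Thus 2294 free regions (56.4%) had no peak within 10 kb, but most had other marked chromatin close by. Another H3K4me1 region lay within 5 kb of 3169 free regions (77.9%). For 1271 (31.2%) a directly adjacent H3K4me1 region, with no other in between, held Runx3 and lay within 5 kb. For the wide regions holding Runx3 the share with another H3K4me1 region within 5 kb was 75.3%.

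The free regions were largely intronic. The midpoint lay inside a protein-coding gene in 3129 of 4070 free regions (76.9%, 75.6 to 78.1%) and in 63.2% of equally wide regions holding Runx3, a difference of 13.7 percentage points (95% Newcombe interval 11.7 to 15.6). Midpoints in introns made up 71.01% of the free regions and 57.1% of the others, and midpoints between genes 21.0% and 34.2%. Coding exons (2.87% and 3.26%) and untranslated exons (3.34% and 3.13%) took small shares in both. Counted over bases, 70.9% of the free regions was intronic, against 57.8% of those holding Runx3 and 36.7% of the 20 chromosomes. Looked at the other way, 50.01% of 6257 wide regions inside a gene were free (48.8 to 51.2%) and 34.4% of 2732 outside one (32.7 to 36.2%). The gap between these shares was present in each width class. Inside and outside genes the share was 58.7% and 46.6% under 4 kb, 51.0% and 31.9% from 4 to 6 kb, and 33.3% and 16.3% at 6 kb or more.

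Within their host genes the free regions lay towards the 5′ end. The host genes had a median length of 67.2 kb (interquartile range 27.0 to 131.4 kb), compared with 59.0 kb for hosts of regions holding Runx3. The midpoint lay a median 10.96 kb from the host's start in free regions and 14.4 kb in the others, at a median 0.240 and 0.321 of the gene's length. The 5′ part of the host gene up to 0.1 of its length held 28.1% of the free regions (26.5 to 29.7%) and 22.1% of the others (20.7 to 23.6%). Of 3129 free regions in a gene, 2310 (73.8%) had a Runx3 peak elsewhere in that gene or within 5 kb of it. This share counts regions, so a gene with several counts repeatedly, and the longest overlapping gene model was taken as host. Of all protein-coding genes 39.8% had a Runx3 peak, and 50.2% in the longest of 5 equal classes of gene length.

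Position about transcription start sites (TSS) showed a contrast between the upstream and the downstream side. A TSS of any annotated transcript lay inside 1092 free regions (26.8%, 25.5 to 28.2%) and inside 28.8% of equally wide regions holding Runx3, a difference of -1.96 percentage points (-3.88 to -0.0284). That difference was small and turned to 0.537 points when a region was counted as free if no peak midpoint lay inside it. The side of the TSS separated the sets more. From the nearest protein-coding TSS, the midpoint of 71.3% of the free regions lay downstream (69.8 to 72.6%), against 59.8% of those holding Runx3 (58.5 to 61.2%). Of 677 wide regions with the midpoint 1 to 5 kb upstream of the TSS, 204 were free (30.1%, 26.8 to 33.7%), whereas of 2015 at 1 to 5 kb downstream 1036 were free (51.4%, 49.2 to 53.6%). With 1 start per gene these shares were 28.0% and 51.1%.

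The contrast extended beyond the first 5 kb from the TSS and was smaller beyond 50 kb. At 5 to 20 kb the free share was 38.1% upstream and 52.9% downstream, at 20 to 50 kb 38.2% and 49.6%, and beyond 50 kb 37.7% and 40.6%, where the 2 intervals overlapped. Within 1 kb of the TSS 48.2% of 1002 wide regions were free. In regions with no TSS inside, the shares at 1 to 5 kb were 30.8% of 273 upstream and 55.3% of 1235 downstream. Over all widths together, the region 1 to 5 kb upstream of a TSS was thus the place where a wide H3K4me1 region was least often without a Runx3 peak. Among regions of 6 kb or more this place was not distinct. There the free share was 17.6% at 1 to 5 kb upstream, 18.4% at 20 to 50 kb upstream and 19.5% within 1 kb, with overlapping intervals.

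**Figure D2:**
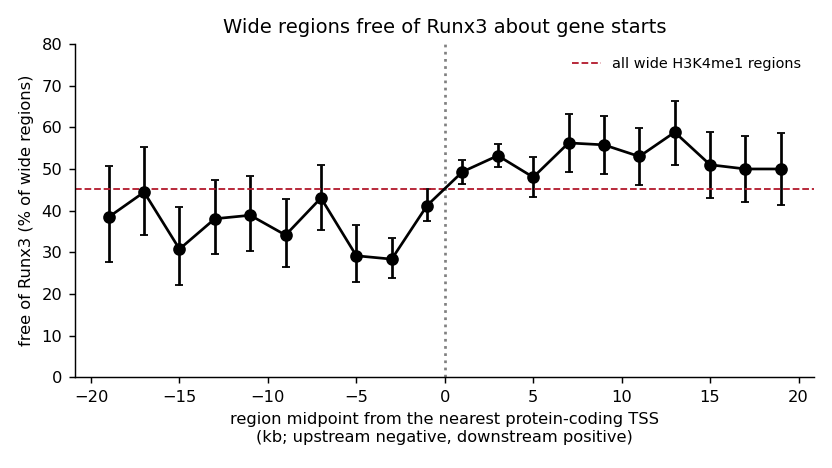
Share of wide H3K4me1 regions free of Runx3 (vertical axis, percent) by the distance of the region's midpoint from the nearest protein-coding TSS (horizontal axis, kb, upstream negative) in steps of 2 kb; points are shares, bars are 95% Wilson intervals, and the dashed line is the share over all wide regions, 45.3%. The lowest share, 28.4%, lies 2 to 4 kb upstream, and from the TSS to 20 kb downstream all points lie above the line.

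Base composition differed little between the sets. The GC content was 45.8% in the free regions and 46.7% in equally wide regions holding Runx3, and CpG dinucleotides numbered 1.43 and 1.39 per 100 bp. A CpG-rich stretch, defined as a window of 300 bp with at least 55% GC and an observed-to-expected CpG ratio of at least 0.65, lay in 1176 free regions (28.9%, 27.5 to 30.3%) and in 29.1% of the others, a difference of -0.232 points (-2.18 to 1.72). This difference was the one most open to the rule: it was 7.08 points when a peak midpoint decided. Among regions with a TSS inside, 64.1% of 1092 free regions were CpG-rich (61.2 to 66.9%), compared with 58.9% of 1437 holding Runx3 (56.3 to 61.4%), and CpG per 100 bp was 2.28 and 1.79.

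The RUNX consensus was less dense in the free regions, but by a modest amount. They held 33917 matches, or 1.83 per kb, against 2.11 per kb in equally wide regions holding Runx3, a ratio of 0.870 (95% counting interval 0.858 to 0.882). Inside the peaks of the latter the density was 3.22 per kb, and outside the peaks 1.81 per kb. Without the peak bases the ratio was 1.01 (0.994 to 1.03), so the free regions had the RUNX density of the part of other regions that no peak covered. Unmarked windows 5 kb from the free regions had 1.69 matches per kb and the 20 chromosomes 1.48. Only 9 free regions and 3 holding regions had no match at all, and the presence of the consensus was therefore almost universal in both sets.

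Of the 4 RUNX words, TGCGGT differed most, at 0.0987 per kb in free regions and 0.130 in the others (ratio 0.762, 0.718 to 0.809). The ratio was 0.849 for TGTGGT, 0.891 for TGTGGC and 1.01 for TGCGGC (0.955 to 1.07). The CpG-bearing words thus did not move alike. In the regions with no TSS inside, TGCGGT had a ratio of 0.689 (0.638 to 0.744) and TGCGGC one of 0.879 (0.815 to 0.948). With a TSS inside, the ratio was 0.918 for TGCGGT (0.832 to 1.01), 1.23 for TGCGGC (1.13 to 1.33) and 0.817 for TGTGGT, so the value for TGCGGC over all regions combines opposite ones.

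Density of the consensus went with the share of regions that were free, within each width class. Among regions of 6 kb or more, 59.6% of the 104 with under 1 match per kb were free (50.01 to 68.5%), against 10.9% of the 129 with 3 or more per kb (6.58 to 17.4%). The corresponding shares were 66.6% and 30.1% from 4 to 6 kb and 62.9% and 45.4% under 4 kb. Even among the most RUNX-dense regions, a share therefore carried no called peak. Local clustering showed the same order. At least 3 matches within 200 bp were present in 29.3% of the free regions (27.9 to 30.7%) and in 41.5% of the others, a difference of -12.3 points (-14.3 to -10.2). Densities and clusters of the holding regions include the bases of their Runx3 peaks. In 39.1% of the holding regions the densest 200 bp was centred in a peak. Clusters outside the peaks alone were not counted.

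**Figure D3:**
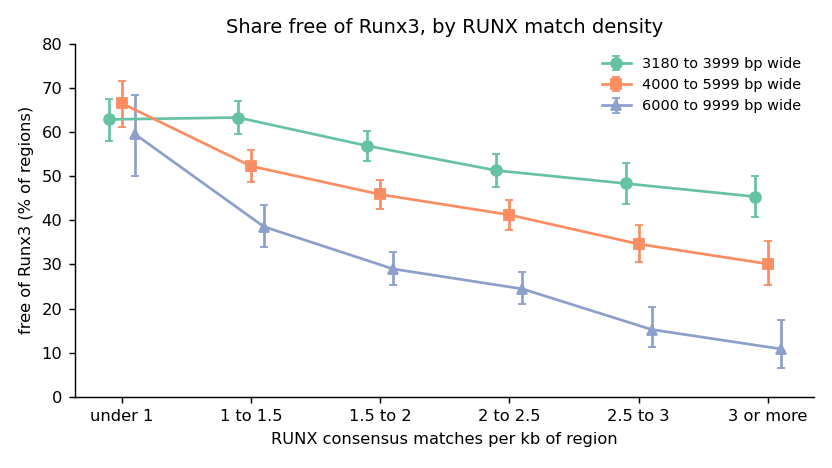
Share of wide H3K4me1 regions free of Runx3 (vertical axis, percent) by the density of RUNX consensus matches (horizontal axis, matches per kb) in 3 classes of width; points are shares and bars are 95% Wilson intervals. The share falls from 59.6% to 10.9% in the widest class and from 62.9% to 45.4% in the narrowest.

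Consensus words of other transcription factors were compared in the same way. The ETS words AGGAAGT and CGGAAGT had 0.350 matches per kb in free and 0.397 in equally wide holding regions (ratio 0.882, 0.853 to 0.911), and without the peak bases the ratio was 1.06 (1.03 to 1.10). The T-box word AGGTGTGA had a ratio of 0.898 (0.829 to 0.973), the AP-1 words TGAGTCA and TGACTCA 0.941 (0.8999 to 0.984), the KLF word CACACCC, which shares most of its letters with the T-box word's other strand, 0.901 (0.868 to 0.935) and the E-box words CAGCTG and CAGGTG, the latter in part overlapping the T-box word, 0.939 (0.923 to 0.955). These ratios all lay below 1. For the STAT word TTCCNGGAA the ratio was 0.991 and its interval included 1 (0.887 to 1.11), as it did for the CRE word TGACGTCA (0.831, 0.665 to 1.03).

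Other words were more frequent in the free regions. The ratio was 1.07 for the GATA words AGATAA and TGATAA (1.05 to 1.09), 1.04 for the TCF/LEF words CTTTGAA and CTTTGAT (1.01 to 1.08) and 1.06 for the SP1 word GGGCGG (1.02 to 1.10). SP1 split by the presence of a TSS, with a ratio of 1.22 (1.16 to 1.28) in regions with one and 0.943 (0.895 to 0.993) in those without. Compared with unmarked windows 5 kb away, SP1 was 2.52 times as dense in the free regions, ETS 1.25 times, T-box 1.27 times and RUNX 1.09 times. The SP1 word contains a CpG, and CpG numbered 1.43 per 100 bp in the free regions and 0.991 in those windows. The part of CpG content and of promoters in these ratios was not tested.

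**Figure D4:**
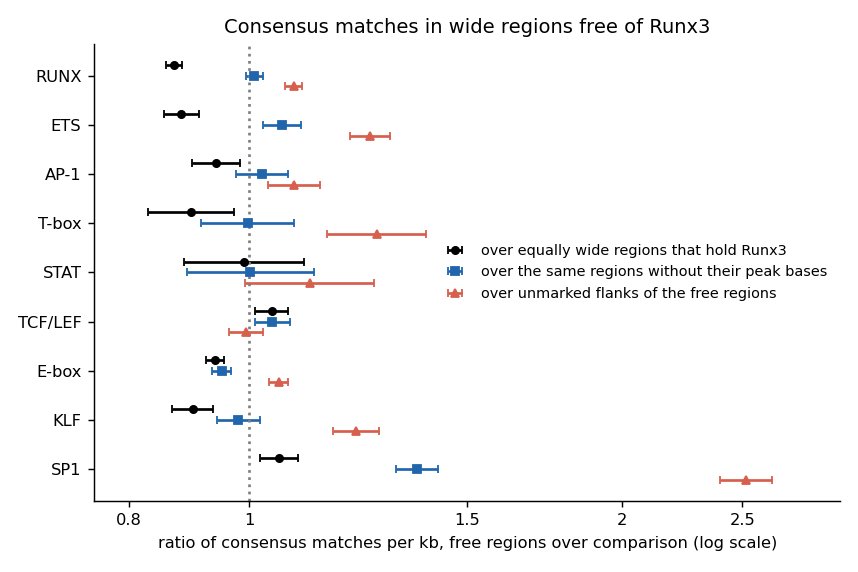
Ratio of consensus matches per kb in the free regions over 3 comparisons (horizontal axis, log scale): equally wide regions that hold Runx3 (black), the same regions without their peak bases (blue) and unmarked windows 5 kb from the free regions (red); bars are 95% counting intervals and the dotted line is a ratio of 1. RUNX lies at 0.870, 1.01 and 1.09, and SP1 at 1.06, 1.37 and 2.52.

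Pairs of words within 50 bp of each other, starts compared, were also less common in the free regions. A pair of RUNX words lay in 48.0% of them (46.5 to 49.6%) and in 60.2% of equally wide holding regions, an ETS-RUNX pair in 22.3% and 32.5%, an AP-1-RUNX pair in 12.4% and 16.4%, and a T-box-RUNX pair in 4.50% and 6.07%. In all, 1955 free regions held paired RUNX words without a peak. The shares of the holding regions include pairs inside their Runx3 peaks, and pairs outside the peaks alone were not counted.

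Matches in dinucleotide repeats made up part of the RUNX words in some of the densest regions. In the regions of the printed windows, matches in dinucleotide repeats made up 10 of 26 in Prkce, 18 of 33 in Arhgef10l and 3 of 20 in Hip1, whereas the free region with the highest density of all, which is not printed, had 0 of 22 in such repeats. Over all regions they were 0.929% of RUNX matches in the free set and 1.06% in the holding set, and the ratio of densities without them was 0.871. Of the windows of 200 bp with 6 or more matches, 19 of 30 in free regions (63.3%) and 41 of 64 in holding regions (64.1%) were at least 60% repetitive at some spacing.

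Promoters inside free regions are shown for genes of immune function or growth, because they are marked start sites where no Runx3 peak was called. Each line gives the 150 bp before the annotated start on the strand of the gene, in mm9, with RUNX, ETS and SP1 words in capitals. Gata3, Irf4 and Tox2 encode transcription factors of lymphocytes, Il7r the interleukin-7 receptor alpha chain, Csf2 the cytokine GM-CSF, Mki67 the proliferation antigen Ki-67 and Arhgef3 a guanine nucleotide exchange factor.
Gata3, chr2:9811662-9811811, minus strand: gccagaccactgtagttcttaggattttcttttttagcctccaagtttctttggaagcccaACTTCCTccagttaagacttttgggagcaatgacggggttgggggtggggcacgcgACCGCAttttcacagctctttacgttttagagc
Irf4, chr13:30840945-30841094, plus strand: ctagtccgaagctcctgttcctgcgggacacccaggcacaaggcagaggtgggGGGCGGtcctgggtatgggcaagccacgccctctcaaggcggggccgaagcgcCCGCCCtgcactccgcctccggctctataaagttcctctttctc
Tox2, chr2:163028711-163028860, plus strand: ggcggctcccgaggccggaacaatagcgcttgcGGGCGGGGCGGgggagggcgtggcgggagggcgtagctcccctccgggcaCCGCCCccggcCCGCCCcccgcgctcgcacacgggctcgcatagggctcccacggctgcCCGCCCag
Il7r, chr15:9459632-9459781, minus strand: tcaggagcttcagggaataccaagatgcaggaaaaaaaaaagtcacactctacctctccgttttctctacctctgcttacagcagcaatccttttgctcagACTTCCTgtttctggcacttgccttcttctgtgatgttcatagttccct
Csf2, chr11:54063170-54063319, minus strand: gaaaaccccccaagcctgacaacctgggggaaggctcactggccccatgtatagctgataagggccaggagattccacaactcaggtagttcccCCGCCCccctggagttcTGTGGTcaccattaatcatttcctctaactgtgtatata
Mki67, chr7:142908063-142908212, minus strand: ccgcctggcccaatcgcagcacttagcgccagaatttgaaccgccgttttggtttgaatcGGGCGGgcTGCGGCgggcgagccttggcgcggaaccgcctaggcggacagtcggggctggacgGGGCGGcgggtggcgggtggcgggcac
Arhgef3, chr14:28051075-28051224, plus strand: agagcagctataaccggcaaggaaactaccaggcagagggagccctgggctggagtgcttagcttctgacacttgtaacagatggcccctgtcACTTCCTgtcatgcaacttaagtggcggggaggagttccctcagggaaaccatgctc

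The promoters of Gata3, Csf2 and Mki67 each held 1 RUNX word, those of Gata3, Il7r and Arhgef3 1 ETS word, and that of Tox2 5 SP1 words with a GC content of 80.7%. A RUNX word lay in 359 of the 1545 such windows before protein-coding starts in free regions (23.2%, 21.2 to 25.4%), in 33.7% of 2156 in holding regions (31.8 to 35.7%) and in 26.3% of all 45940. An ETS word lay in 11.1%, 15.9% and 9.78%, and an SP1 word in 42.3%, 39.8% and 35.9%. By these counts of windows, promoters in free regions were below all promoters in RUNX words and above them in SP1 words. A gene with several starts gave several windows, which can overlap, so the windows are not independent and the intervals are too narrow.

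Genes were linked to a region when it shared bases with the gene body or 5 kb on either side. Of 22350 protein-coding genes 14.2% (13.8 to 14.7%) had a free region, 1026 (4.59%) had a start inside one, 8889 (39.8%) had a Runx3 peak and 3754 (16.8%) a wide region holding Runx3. A single free region was the rule, since 651 genes had 2 or more and 42 had 5 or more. Of the genes with a free region, 2050 (64.5%, 62.8 to 66.1%) also had a Runx3 peak and 1130 (35.5%) had none, and 1078 (33.9%) also had a wide region that held Runx3. Of the 1026 genes with a start in a free region, 479 (46.7%, 43.7 to 49.7%) had a peak. Longer genes had free regions more often, from 4.56% in the shortest to 26.1% in the longest of 5 equal classes of gene length.

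The gene lists below are read against those shares and against gene length, whose median was 15.4 kb over all protein-coding genes. NK receptors, through which the cell recognises its targets, more often had Runx3 in their wide regions than not. Of 28 listed genes 10 (35.7%) had a free region, 21 (75%) a wide region holding Runx3 and 24 (85.7%) a Runx3 peak, at a median gene length of 14.0 kb. None of the 28 had a start inside a free region, a count of 0 that allows a share of up to 10.7%, above the 4.59% of all genes. A start lay inside a holding region at 13 of the 28, against 6.19% of all protein-coding genes. The free regions belonged to Cd226 and Cd244, with 2 each (9.37 and 6.80 kb), to Klra4 with 2 (12.7 kb), and to Klrk1 (which encodes NKG2D), Klrg1, Klrc3, Klri1, Klri2, Slamf7 and Tigit with 1 each. Genes of the Klra, Klrc and Klri groups have near-identical copies, which leaves their values uncertain because only unique alignments were kept.

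Of 21 genes of cytotoxic granules and death ligands, 8 (38.1%) had a free region and 9 (42.9%) a holding one, at a median length of 15.9 kb. The free regions lay at Srgn, Ctsc, Lamp1, Rab27a, Stx11 and Stxbp2, which act in granule formation or release, and at Gzmk and the death ligand gene Tnfsf10. Other genes of granule formation or release, Unc13d, Lyst, Ap3b1 and Lamp2, had none. Stxbp2 (a partner of syntaxin in granule fusion) had 7 starts in a single free region of 3186 bp and no Runx3 peak. The effector genes Prf1, Gzma, Gzmb and Fasl likewise had no free region, and they had 4, 3, 2 and 4 Runx3 peaks, respectively. All H3K4me1 regions at Prf1 (1) and Fasl (2) were 10 kb or wider, outside the studied widths. The granzyme gene Gzmc had no free region and 0 peaks. Genes with a free region had Runx3 peaks too, with 3 each at Gzmk, Rab27a and Tnfsf10 and 2 at Srgn. Ctsc and Stx11 had 1 each, and Lamp1 had 0.

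Cytokine genes had free regions at about the share of all genes, and their receptors at a higher one. Of 14 cytokine and chemokine genes, 2 (14.3%) had a free region, Csf2 and Lta, and 8 (57.1%) a holding one, at a median length of 4.29 kb, and of all genes of 3.28 to 10.1 kb 11.1% had a free region. For Csf2, 5.30 kb of free region covered the whole gene of 2.40 kb. Ifng, Ccl3, Ccl4, Ccl5 and Xcl1 had no free region and 2 Runx3 peaks each. All H3K4me1 regions at Ccl3 (2) and Ccl4 (1) were 10 kb or wider, outside the studied widths. Of 38 cytokine receptor and signalling genes, 18 (47.4%) had a free region and 18 a holding one, at a median length of 28.6 kb. A start lay in a free region at Il2rg (the common gamma chain), Il7r, Il10ra, Il18rap, Smad2 and Cish (an inhibitor of cytokine signalling), and Cish, Il7r and Il10ra had no Runx3 peak. Il18rap also had 3 starts inside holding regions. Tgfbr2, the type II receptor of TGF-beta, had 4 free regions of 23.8 kb in all beside 3 Runx3 peaks.

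Intracellular signalling and transcription factor genes had free regions in over 57% of their members. Of 36 genes of activating receptor signalling, 23 (63.9%) had a free region and 27 (75%) a holding one, at a median length of 51.3 kb. Starts lay in free regions at Zap70 (a kinase that binds phosphorylated ITAM chains), the diacylglycerol kinases Dgka and Dgkz, the PI3-kinase subunits Pik3cd and Pik3r1, Prkcq and Nfatc1. Pik3cd had 4 starts in free and 5 in holding regions, and the only free start of Zap70 was not the gene's 5′ end. The largest extents were at Cbl (an E3 ligase, 5 regions, 28.4 kb), Pik3r1 (4 regions, 24.8 kb) and Vav3 (an exchange factor, 4 regions, 18.3 kb), of which Vav3 had no Runx3 peak. Of 54 transcription factor genes, 31 (57.4%) had a free region and 36 (66.7%) a holding one, at a median length of 49.7 kb.

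Among the transcription factors, starts lay in free regions at Gata3, Irf4, Tcf3, Tox2, Runx2, Foxp1, Ikzf3 and Prdm1. Foxp1 and Prdm1 each also had 2 starts inside holding regions. The only free start of Foxp1, and that of Runx2, was not the 5′ end of the gene. Irf4 had no Runx3 peak and Gata3 had 4, so a free promoter did not mean a gene without Runx3. The Runx family itself had free regions, with 8 at Runx2 (43.4 kb, 5 peaks), 6 at Runx1 (26.6 kb, 18 peaks), 2 at Runx3 (11.5 kb, 8 peaks) and 1 at Cbfb (3.92 kb, 1 peak). Nfkb1 and Irf2 had 6 each (27.5 and 32.2 kb) and Bach2 7 (28.3 kb). Of 28 trafficking and adhesion genes, 11 (39.3%) had a free region and 17 (60.7%) a holding one, with a start in a free region at the chemokine receptor gene Cxcr6, among others.

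Cell growth genes had free and holding regions about equally often, and chromatin regulators had more genes with a free one. Of 24 cell cycle and growth genes, 13 (54.2%) had a free region and 12 (50%) a holding one, and the survival gene Bcl2 had 7 free regions of 36.8 kb. Of 31 chromatin regulators, 18 (58.1%) had a free region and 10 (32.3%) a holding one, at a median length of 79.3 kb. Starts lay in free regions at Tet3 (a methylcytosine dioxygenase), Satb1 (a chromatin organiser), Hdac7 (a deacetylase) and Kdm1a (a demethylase of H3K4). Hdac7 had 4 starts in free and 1 in holding regions, and Kdm1a had 1 in each. Tet3 had 3 free regions of 17.8 kb and no Runx3 peak.

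**Figure D5:**
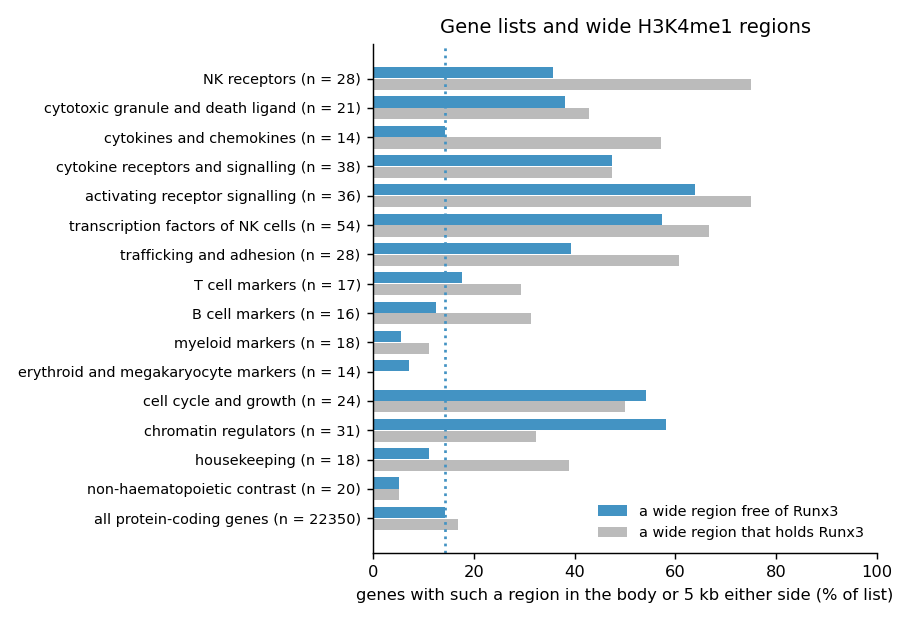
Share of genes (horizontal axis, percent of each list) with a wide region free of Runx3 (blue) or holding Runx3 (grey) in the body or 5 kb on either side, for 15 lists and for all protein-coding genes; n is the number of genes matched, and the dotted line is the share of all genes with a free region, 14.2%. Blue exceeds grey for chromatin regulators (58.1% and 32.3%), and NK receptors show the opposite order (35.7% and 75%).

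Markers of other cell types and contrast genes had free regions at shares near or below the 14.2% of all genes. The counts were 3 of 17 T cell markers (17.6%), 2 of 16 B cell markers (12.5%), 1 of 18 myeloid markers (5.56%), 1 of 14 erythroid and megakaryocyte markers (7.14%), 2 of 18 housekeeping genes (11.1%) and 1 of 20 non-haematopoietic genes (5%). Starts lay in free regions at Cd3g and Cd3d (chains of the T cell receptor complex), Pax5 (the B lineage factor), Cebpa (a myeloid factor) and Tal1 (an erythroid factor). Those of Cd3g and Cd3d lay in the same free region of 6010 bp, so these genes are not independent counts. Marked chromatin as such was present at many of these genes, since an H3K4me1 region of any width touched 28 of 28 NK receptors, 15 of 17 T cell, 15 of 16 B cell, 11 of 18 myeloid and 6 of 14 erythroid and megakaryocyte markers, against 67.7% of all genes. The part of other cell types in these counts was not tested.

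Some loci carried free regions in series. Apart from Gm20388 and Fgfr2, whose annotated models of 4434.9 and 3009.1 kb span many other genes, the most were at Med13l (a Mediator kinase module subunit), with 9 regions of 39.8 kb in all and 1 Runx3 peak over 204.7 kb. Runx2, Cdk19 (a Mediator kinase) and Sipa1l1 had 8 each, and Bcl2, Fam49b and Foxp1 7 each. Med13l and Cdk19, which encode parts of the same Mediator module, each had 1 wide region holding Runx3.

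Genes with extensive free regions and no Runx3 peak were led by St3gal4 (a sialyltransferase), where 4 regions covered 27.2 kb within chr9:34854164-34924395. Tnip1, an inhibitor of NF-kB signalling, had 4 regions of 24.6 kb (chr11:54724289-54776419), which were all of its H3K4me1 regions. Next came Fbxo11 with 23.9 kb, Atp2b1 (a plasma membrane calcium pump) with 21.0 kb, Pak2 with 20.8 kb, Larp1 with 20.1 kb, Pias1 (a SUMO ligase) with 19.7 kb and Heca with 19.6 kb. These genes had between 3 and 4 free regions each.

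The 10 widest free regions all touched an annotated gene. After the region in an intron of 5430427O19Rik came chr14:28048938-28058919 over the start of Arhgef3 (9982 bp, 19 RUNX matches, 2.08 kb from the nearest peak) and chr5:121132597-121142550 in Dtx1 (9954 bp, 20 matches, 11.9 kb), which encodes the Notch regulator Deltex1. The following ones were in Celf2 (9897 bp), Ikzf3 (9860 bp), Nfatc3 (9848 bp), Fbxo11 (9841 bp), Add3 (9834 bp), Mllt1 (9819 bp) and Smad4 (9814 bp). Their gaps to a peak ran from 0.560 kb at Smad4 to 5334.4 kb at 5430427O19Rik. RUNX matches numbered between 6 and 22, so none of these 10 was without the consensus.

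At the other extreme of sequence, the widest regions with no RUNX word were in introns of Msn (chrX:93292919-93297859, 4941 bp), which encodes moesin, and of Pkn2 (chr3:142539999-142544095, 4097 bp), followed by regions at Nfyc (3919 bp), Cdk19 (3800 bp) and Mns1 with Tex9 (3533 bp). The Pkn2 region ended 0.744 kb from a peak and the Msn region 438.9 kb from one. The regions farthest from Runx3 were in an intron of Cdh10 (chr15:18750757-18754319, 6007.0 kb), at 5430427O19Rik on chromosome X (2 regions, 5334.4 and 5328.9 kb), at the start of Pcdh7 (chr5:58104570-58112164, 3602.1 kb) and at Pcdh17 (chr14:84843067-84848458, 2287.7 kb). Cdh10, Pcdh7 and Pcdh17 encode cadherins and protocadherins, adhesion proteins best known from neurons. The Pcdh7 and Pcdh17 regions had observed-to-expected CpG ratios of 0.748 and 0.721, and that of Cdh10 0.202.

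Chromosome X stood apart from the autosomes. Of its 108 wide regions 71 were free (65.7%, 56.4 to 74.0%), while the share on autosomes ran from 41.1% (chromosome 8) to 49.7% (chromosome 13). Runx3 peaks were sparser there too, at 1.20 per Mb against 4.25 to 10.4 per Mb on the autosomes, and so were free regions, at 0.426 against 1.09 to 2.68 per Mb.

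Noncoding genes were also found in free regions. Of 1576 annotated miRNA genes 27 shared bases with a free region and 34 with a holding one, and of 1273 lincRNA genes 114 (8.96%) and 121 (9.51%). For 21 of the 27 a mature sequence of RefSeq was found at the gene in mm9. Those of 3 free regions are printed, with the seed (bases 2 to 8) in capitals, because these miRNAs are known from lymphocytes or blood cells. Mir15b and Mir16-2 lie in the same region (chr3:68810134-68817260, 7127 bp, 0.960 kb from a peak) and share a seed.
miR-15b-5p: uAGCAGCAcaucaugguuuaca
miR-16-5p: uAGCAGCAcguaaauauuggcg
miR-21a-5p: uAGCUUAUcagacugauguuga
miR-139-5p: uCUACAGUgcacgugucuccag

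The region of Mir21 (chr11:86389883-86398810) was 8928 bp wide and ended 0.874 kb from a peak, and that of Mir139 (chr7:108623468-108628115) was 4648 bp wide and lay 7.50 kb from one. At Mir15b with Mir16-2 and at Mir21 the gap to a peak was shorter than the region itself. Other miRNA genes in free regions were Mir196b (6737 bp), Mir34b and Mir34c in 1 region (3570 bp, 90.8 kb from a peak), Mir425 (4026 bp), Mir149 (8071 bp) and Mir9-2 (3353 bp, 139.2 kb from a peak).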

How the data were processed

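ChIP-seq of Runx3, H3K4me1 and the NIS control was performed with 1 deposited sample each from resting splenic NKC of ICR mice. Per the labels, chromatin was fixed in 1% formaldehyde and sonicated to about 300 bp, and 40 bp reads were aligned to mm9 with ELAND (CASAVA 1.7 in the submitters' processing notes). By the study's methods, the authors kept unique alignments, joined the reads of biological repeats and called regions with MACS against NIS, the larger data set being scaled to the smaller. The deposited lists hold coordinates only and no score, p-value or read count, so depth at a region is unknown. Unique alignment discards reads of repeats and near-identical genes, and joined reads allow no spread between repeats.

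Starts were read as 0-based and are printed 1-based on mm9. Regions from 3180 to 9999 bp were kept and split by overlap with a Runx3 peak (at least 1 bp). Genes and starts were those of GENCODE on mm9, with 86803 TSS positions and 22350 protein-coding genes. Words were counted on both strands of the mm9 sequence. Holding regions were weighted to the free regions' widths in bins of 500 bp. Shares carry Wilson, differences Newcombe and ratios binomial counting intervals at 95%. No test was run, since each antibody had 1 list. Flanking windows began 5 kb from each edge, and 4031 of 8140 that shared no base with either list were used. A miRNA gene was matched by its RefSeq mature sequence at its mm9 position, the RefSeq table being of another build and used for letters and names only.

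The regions, gene lists and rules were chosen with earlier results of these data known. Named were the 10 widest free regions, the 10 genes with the most free regions, the 10 genes without a Runx3 peak with the most free bases, the 5 free regions with the most RUNX matches per kb and the 5 widest without one, the 5 farthest from a peak, and the list genes with a start inside a free region or with the most free bases. Some items that these rules name are not reported here. Some list genes beyond these, the miRNAs and the promoters shown were picked after their values were seen. The descriptions of flanks, clusters of words, repeats and the side of the start were added after the first results. Alternatives changed the width limits, the overlap rule, the chromosomes, the merging of regions, the weighting, the words and the gene and TSS definitions. Tools were Python 3.11.15, numpy 2.4.6, scipy 1.17.1, pandas 2.3.3, pysam 0.24.0, samtools 1.23.1 and matplotlib 3.10.9, and the scripts were tested on simulated data.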

Additional observations from a re-analysis of the deposited data

How the results depend on the processing

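Of 74 alternative values, 38 moved by less than their counting interval, 33 moved more and 3, whose main intervals did not include equality, turned in direction. The 6 alternatives of the number of free regions had no interval and were judged by a fixed factor instead, 5 as unmoved and 1 as moved. The difference in CpG-rich stretches, whose main interval included 0, also changed sign under 4 alternatives, to 0.687 with a lower limit of 4 kb, 7.08 when a peak midpoint decided, 0.921 without weighting and 1.35 in windows of 500 bp. The causes were not tested. With a lower limit of 4 kb there were 2165 free regions, 39.2% of wide ones, with 48.1% within 10 kb of a peak, a difference of 16.7 points for midpoints in genes, a RUNX ratio of 0.857 and 8.16% of genes. With an upper limit of 6 kb the free share was 49.9%, that within 10 kb 41.7% and that of genes 12.8%. When regions with a peak within 1 kb were left out, these were 42.4%, 36.6% and 12.2%, the differences 11.6 points for genes and -2.96 for CpG-rich stretches, and the RUNX ratio 0.887. When a peak midpoint decided, the shares were 50.3%, 49.3% and 16.5%, the differences 17.8 points for genes and 0.537 for a TSS inside (-1.41 to 2.47), which reversed, and the RUNX ratio 0.849. Merging regions at gaps of at most 500 bp gave 34.1% within 10 kb, differences of -6.43 (TSS), 9.62 (genes) and -4.99 points (CpG-rich) and 17.97% of genes. A peak lay within 5 kb of 28.1% and within 50 kb of 80.9% of free regions. The gene body with 5 kb on either side gave a difference of 9.38 points, the body alone 11.8% of genes and a TSS inside 4.59%. The RUNX ratio was 0.849 for TGTGGT and turned to 1.01 without peak bases, and the ETS ratio was 0.955 for GGAAG and turned to 1.06. Leaving out gene models over 2.5 Mb or matches in dinucleotide repeats, both chosen after seeing the data, moved no value beyond its interval.

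No paired analysis was possible because each antibody had 1 sample and 1 list. Leaving out masked repeat bases was not run, since the reference used here does not mark them. The coordinates give no read depth, so binding below the caller's threshold cannot be told apart from none. The intervals describe counting over regions and say nothing of the spread between animals. Overlap by 1 bp and absence by 1 bp divide the sets, so regions near that limit change sides with small shifts of a peak's edge.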
